A study of Mus musculus with 10 samples.

Results

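Macrophage activation state genes are genes by which the inflammatory or tissue-repair state of a macrophage is commonly read. They were followed here in hepatic stellate cell (HSC) preparations: Slamf7, Acod1, Chil3, Retnla, Arg1, Nos2, Socs1 and Socs3, which are 8 of the 25233 entries with a gene symbol and were chosen by symbol alone. RNA sequencing compared 5 libraries of hypertrophied HSCs (hypHSCs) with 5 of quiescent HSCs (qHSCs), each from 1 sorted preparation. The hypHSCs came from livers of C57BL/6J mice fed the CDAHFD, which is high in fat, lacks choline and produces steatohepatitis with fibrosis. hypHSC 1 and 2 had 13 weeks of this diet at 19 weeks of age, and hypHSC 3, 4 and 5 had 12 weeks at 18 weeks of age. The qHSCs came from mice of the same strain on the standard diet, aged 36 weeks for qHSC 1, 2 and 5 and 34 weeks for qHSC 3 and 4. Per the study's methods the mice were male, no gene was deleted or transferred, the CDAHFD livers were digested under stronger conditions, and the cells were sorted on their own fluorescence, with a green signal required of hypHSCs only. Antibiotics were added to the buffers of the CDAHFD preparations, apart from the perfusion buffer. The study reports bacterial contamination in preparations from these livers and never in those from the standard diet. Diet, age, digestion, antibiotics and sorting gate therefore changed together and cannot be told apart. The hypHSC libraries were picked by the study for RNA integrity from a set with more samples than mice, and the qHSC preparations were selected as well. The mouse behind each library is not named, and libraries may share a mouse. Therefore n is a number of preparations, and the p-values measure the spread between them.

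A macrophage exposed to interferon-gamma and bacterial products switches on Nos2, the inducible nitric oxide synthase, and Acod1, the mitochondrial enzyme that turns cis-aconitate into itaconate. Exposure to IL-4 or IL-13, acting through STAT6, switches on Arg1, which splits arginine into ornithine and urea, Chil3, a secreted chitinase-like protein (Ym1), and Retnla, a secreted resistin-like protein (FIZZ1). Socs1 and Socs3 encode suppressors of cytokine signaling that bind cytokine receptors and their JAK kinases, and Slamf7 encodes a receptor of the SLAM family that binds itself on neighboring leukocytes. None of these genes belongs to macrophages alone: in the liver Arg1 is foremost a urea cycle enzyme of hepatocytes, Chil3 is also made by neutrophils, and SOCS genes are induced in most cell types.

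The libraries held 30534719 to 47317028 reads on genes with a symbol, and values are normalized counts, that is, reads divided by the size factor of the library. A library listed at 0 allows up to 3 reads, or 2.25 to 4.54 normalized counts by library, and such limits cover counting error only. The hypHSC libraries of 13 diet weeks stood apart by their mitochondrial reads, 12.8% in hypHSC 1 and 7.27% in hypHSC 2 against 2.21% to 3.42% in those of 12 weeks, and by their reads on entries without a symbol, 29.1% and 20.1% against 10.8% to 13.2%. qHSC libraries held 1.25% to 1.61% mitochondrial reads. Marker genes were checked against the labels. The summed level of 10 quiescent HSC markers was 30690 to 59518 in hypHSCs and 1169567 to 1970004 in qHSCs, and 10 of 10 were lower in hypHSCs. The summed level of 15 core macrophage markers was 1084773 to 1586228 in hypHSCs and 6429 to 123172 in qHSCs, and 14 of 15 were higher. qHSC 1 and qHSC 4 stood apart from the other qHSC libraries, with macrophage sums of 55868 and 123172 against 6429 to 12157, and with sums of 6 Kupffer cell markers of 19247 and 44861 against 1270.4 to 1919.7. The libraries labelled hypHSC thus carried less of the quiescent HSC transcripts and more of the macrophage transcripts than those labelled qHSC. In bulk samples, fewer cells of a type and less RNA per cell cannot be told apart.

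Of the 8 genes, Slamf7, Acod1 and Chil3 were higher and Socs3 was lower in hypHSCs, Arg1 and Socs1 were not called, and Nos2 and Retnla stayed below the detection filter of at least 10 normalized counts in at least 5 libraries. Genes counted as differentially expressed (DEGs) when they changed by 1 or more on the log2 scale in either direction with an adjusted p not above 0.05, by limma with Benjamini-Hochberg adjustment over 14630 genes. By this rule 4 of the 6 tested members were called, 3 as higher and 1 as lower, against a background of 39.5% DEGs among all genes tested, 17.8% being higher in hypHSCs and 21.7% lower. The groups did not overlap for these 4 genes, which was so for 39.5% of all genes tested. The median log2 fold change of the 6 genes was 2.87, against -0.20 for all genes tested. With scaling of every library to an equal total, the share of DEGs that were higher went from 45.0% to 32.4%, and with scaling on Hprt, Pgk1 and Actb to 17.4%, but the 4 genes kept their direction and their call. With the hypHSCs of 12 diet weeks alone they also kept both, at log2 fold changes of 7.21 for Slamf7, 5.60 for Acod1, 5.19 for Chil3 and -3.16 for Socs3, and so they did without qHSC 1 or qHSC 4.

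**Figure D1:**
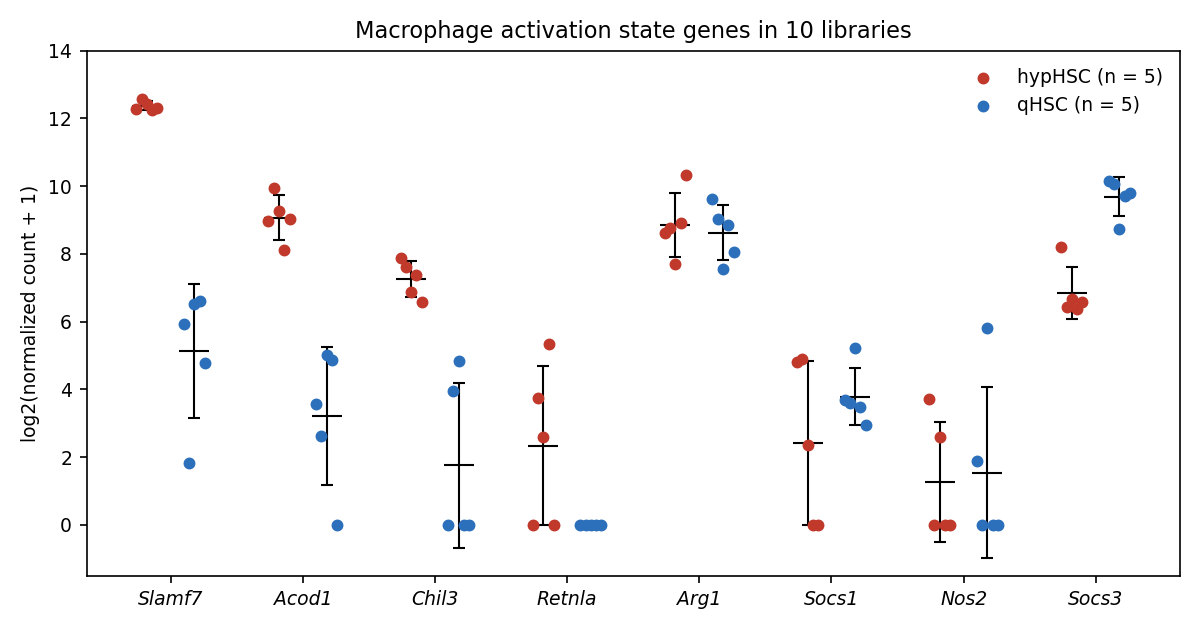
Level of each gene as log2(normalized count + 1) in 5 hypHSC (red) and 5 qHSC (blue) libraries, 1 point per library, with a bar at the mean and whiskers of 1 SD. Slamf7, Acod1 and Chil3 separated with hypHSCs above, Socs3 separated with qHSCs above, and the other genes overlapped.

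The sequences before the transcription start of the 4 genes that differed, with those of Socs1 and Retnla, are shown so that the letters recognized by the factors downstream of these cytokines can be read against the values. They come from RefSeq on build GRCm38.p6, which gave a start for 6 of the 8 genes, all but Arg1 and Nos2, and are printed 5′ to 3′ on the gene's own strand. Capitals mark matches, on either strand, to the motifs TTCNNNGAA (a gamma-activated site bound by STAT dimers), TTCNNNNGAA (its wider form, bound by STAT6), GAAANNGAAA (an interferon response element), TGANTCA (AP-1), GAGGAA (a core of ETS factors such as PU.1) and TATAAA (the TATA box), and the kappa B consensus was also searched. Slamf7 lies at chr1:171649000-171649249 (minus strand), Chil3 at chr3:106167565-106167814 (minus), and the distal stretch of Acod1 at chr14:103046762-103046971 (plus). Of Socs3, at chr11:117969502-117969530 (minus), Socs1, at chr16:10785597-10785626 (minus), and Retnla, at chr16:48842454-48842483 (plus), a window around a match is shown.
Slamf7: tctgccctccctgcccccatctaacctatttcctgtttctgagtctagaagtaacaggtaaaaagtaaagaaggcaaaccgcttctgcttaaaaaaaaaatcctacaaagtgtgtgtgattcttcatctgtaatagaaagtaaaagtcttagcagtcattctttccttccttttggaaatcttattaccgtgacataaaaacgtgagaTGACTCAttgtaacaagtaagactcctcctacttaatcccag
Chil3: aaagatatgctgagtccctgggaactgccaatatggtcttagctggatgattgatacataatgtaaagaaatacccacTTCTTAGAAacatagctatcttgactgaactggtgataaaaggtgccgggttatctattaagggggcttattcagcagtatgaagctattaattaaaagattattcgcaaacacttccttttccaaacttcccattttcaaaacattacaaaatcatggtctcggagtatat
Acod1: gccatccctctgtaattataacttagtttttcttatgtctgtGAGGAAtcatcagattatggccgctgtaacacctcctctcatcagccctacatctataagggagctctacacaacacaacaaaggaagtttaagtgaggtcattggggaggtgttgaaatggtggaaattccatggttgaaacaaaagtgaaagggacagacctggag
Socs3: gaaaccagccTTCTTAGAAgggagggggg
Socs1: cttgccgGAAAGAGAAACCGAAAgcggggg
Retnla: agaatcataaTTCACAAGAAattgctaaac

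In the 250 bases before the start, counted backwards from -1, Slamf7 held TGANTCA at -42, which 6.75% of 32851 RefSeq promoters hold in the same window. Chil3 at -172 and Socs3 at -154 each held TTCNNNGAA, present in 7.02% of promoters, with the same letters TTCTTAGAA, and of these genes Chil3 was higher and Socs3 lower in hypHSCs. Acod1 held GAGGAA at -208, a match found in 23.3% of promoters, and TATAAA at -28, found in 12.4%. Socs1 held a pair of overlapping GAAANNGAAA matches at -83 and -77, a motif of 2.98% of promoters, and GAGGAA at -141. Retnla held TTCNNNNGAA at -145, a motif of 5.85% of promoters, TATAAA at -30 and, on the opposite strand, GAGGAA at -196. The kappa B consensus, found in 7.25% of promoters, matched in none of the 6 windows. These matches describe letters in a window, and no binding was measured.

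Slamf7 was the most abundant of the 8 genes in hypHSCs and the one with the largest difference. It was counted at 4948, 6089, 5543, 4920.3 and 5112 in hypHSC 1 to 5 and at 60.6, 2.56, 90.5, 95.8 and 26.2 in qHSC 1 to 5. The hypHSC libraries lay close together, their highest value being 1.24 times their lowest, and every one was far above every qHSC library. The log2 fold change was 7.24 ± 0.77 (SE, n = 5 against 5; 95% confidence interval 5.56 to 8.93; limma adjusted p = 2.16e-05). The exact two-sided permutation test gave p = 0.00794, the smallest that 5 libraries against 5 allow. The spread lay on the qHSC side, with an SD of 1.98 on the log2 scale against 0.13 in hypHSCs, and without qHSC 2 the log2 fold change was 6.42. Without hypHSC 1 it was 7.27. The gene lies at chr1:171459971-171480606 in the deposited table (GRCm39, minus strand, 6 exons), with 9.22% of its exon bases covered by Gm37787 on the other strand.

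Other SLAM family genes and their adaptors rose as well. Of the 10 genes listed, 8 were tested, with a median log2 fold change of 4.81. Of these 8 of 8 were higher in hypHSCs, against 17.8% of all genes tested. The largest rise was that of Sh2d1b1, which encodes EAT-2, the adaptor that carries the activating signal of SLAMF7. Sh2d1b1 was at 1198 to 2825 in hypHSCs and at 0 to 30.8 in qHSCs, a log2 fold change of 8.34 ± 0.95 (SE; limma adjusted p = 3.60e-05). Cd84, a SLAM receptor that also binds itself, was at 12676 to 14188 in hypHSCs and 17.0 to 577 in qHSCs (log2 fold change 7.03 ± 0.73). Ly9 and Cd48, which encode a self-binding receptor and the ligand of CD244, had log2 fold changes of 6.58 and 5.36. Slamf1 and Sh2d1a, best known from T cells, were below the filter.

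The core macrophage markers rose with Slamf7, and their part in its difference was not tested. Per 1000 counts of the 15 summed macrophage markers, Slamf7 was at 3.30 to 4.71 in hypHSCs and at 0.398 to 7.45 in qHSCs, so the ranges overlapped, qHSC 3 being above every hypHSC library. In qHSC 1 and qHSC 4, the qHSC libraries with most macrophage transcripts, this ratio was 1.09 and 0.778, below every hypHSC library. Cd84 on the same scale was at 8.31 to 13.0 in hypHSCs and 2.65 to 6.14 in qHSCs, without overlap. Sh2d1b1 on this scale overlapped, at 0.755 to 2.60 in hypHSCs and 0 to 1.99 in qHSCs.

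**Figure D2:**
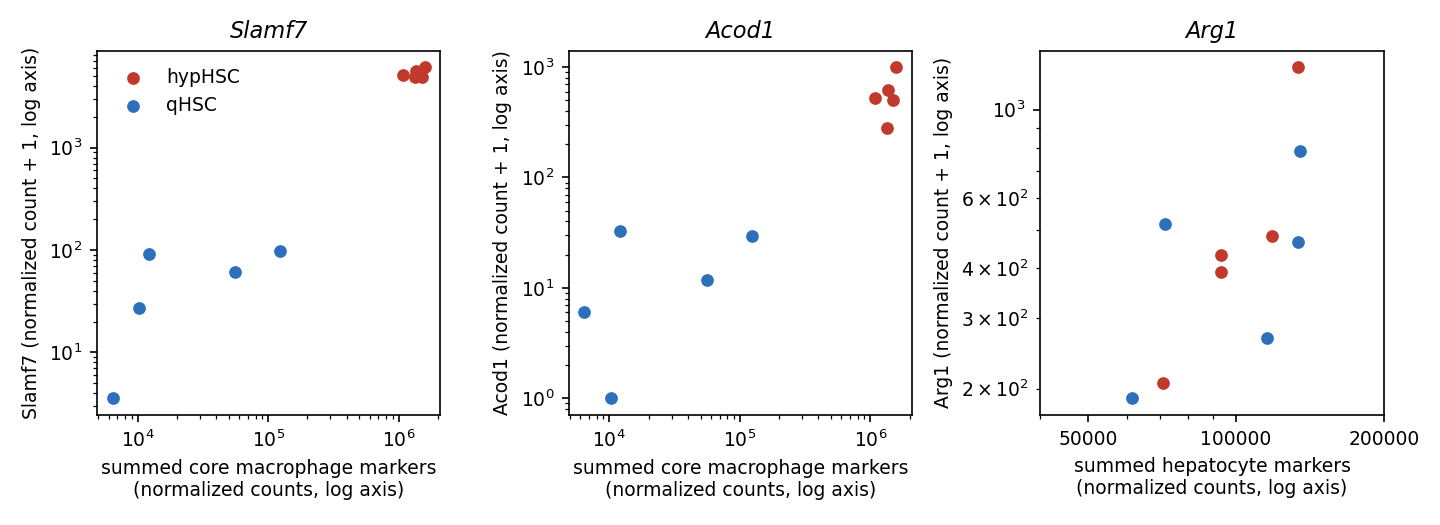
Slamf7 and Acod1 against the summed core macrophage markers, and Arg1 against the summed hepatocyte markers, 1 point per library (red hypHSC, blue qHSC), all in normalized counts on log axes. For Slamf7 and Acod1 the 5 hypHSC libraries sit together at high marker sums, while for Arg1 both groups share the same range of hepatocyte marker sums.

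Acod1 was also higher in hypHSCs, at a lower level. Its normalized counts were 501, 994, 614, 279 and 526 in hypHSC 1 to 5 and 10.9, 5.11, 31.5, 28.2 and 0 in qHSC 1 to 5. The lowest hypHSC library was above the highest qHSC library, and hypHSC libraries differed among themselves by 3.56 times. It rose by 5.86 ± 0.86 on the log2 scale (SE; 95% confidence interval 3.97 to 7.75; limma adjusted p = 0.000214; exact permutation p = 0.00794). Without qHSC 5, the library at 0, it was 5.06. Acod1 lies at chr14:103284411-103294009 (GRCm39, plus strand, 5 exons). In GENCODE, 9.42% of its exon bases are covered by Gm41235 on the other strand, and strand was not kept. The separate entry for Gm41235 was itself at 39.3 to 148 in hypHSCs and 0 to 3.15 in qHSCs.

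Most genes listed as aconitate and itaconate partners, which include transporters and subunits of succinate dehydrogenase, were not called. Of 11 such genes, 10 were tested, with a median log2 fold change of -0.33. Against a background of 17.8% higher and 21.7% lower, 1 was higher, 1 lower and 8 not called. Among those not called, Sdha (-0.79, limma adjusted p = 0.00694) and Sdhb (0.94, limma adjusted p = 0.0252) missed only the fold criterion. Idh1, the cytosolic isocitrate dehydrogenase, rose by 2.32 ± 0.25 on the log2 scale (SE; limma adjusted p = 2.77e-05), from 2404 to 3435 in qHSCs to 10415 to 24272 in hypHSCs. Aco1, the cytosolic aconitase, fell by 1.22 ± 0.45 (limma adjusted p = 0.0453), a call lost by edgeR and DESeq2 (both -0.91) and when any of 8 libraries was left out, the values running from -1.31 to -0.73. Per 1000 counts of core macrophage markers, Acod1 was at 0.208 to 0.627 in hypHSCs and at 0 to 2.59 in qHSCs, and the part of those markers in its difference was not tested.

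Chil3 was higher in hypHSCs from a level near detection in qHSCs. It was counted at 236, 197, 117, 165 and 95.3 in hypHSC 1 to 5, and in qHSCs at 14.5 in qHSC 2, 27.6 in qHSC 3 and 0 in qHSC 1, 4 and 5. All hypHSC libraries were above all qHSC libraries, 3 of which held no read. The log2 fold change was 5.51 ± 1.01 (SE; 95% confidence interval 3.29 to 7.74; limma adjusted p = 0.001002; exact permutation p = 0.00794), and it was 4.28 by edgeR on the recovered reads. Without qHSC 3 it was 6.28, and without qHSC 1, 4 or 5 it was 5.08. Chil3 lies at chr3:106054870-106074880 (GRCm39, minus strand, 11 exons). Of the 59-base stretches of its transcripts, 18.0% also occur in other genes, foremost Chil4 (10.7%), so part of its reads could come from that copy.

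Retnla, the other secreted marker of the IL-4 response, was hardly detected. It was listed at 0, 12.4, 4.99, 39.9 and 0 in hypHSC 1 to 5 and at 0 in every qHSC library. A 0 in a qHSC library allows up to 2.72 normalized counts, so the hypHSC mean of 11.5 was at least 4.22-fold higher than this floor per library. The difference of the mean log2 values was 2.34, and the exact two-sided permutation test gave p = 0.167. Since 2 hypHSC libraries were also at 0, the groups overlapped. Retnla lies at chr16:48662914-48664824 (GRCm39, plus strand, 4 exons) and shares no exon base with another gene.

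Of the 8 other chitinase-like and resistin-like genes, 3 passed the filter. Chil4 and Retnlg, the 2 of these that were higher, reached 10 normalized counts in hypHSC libraries only, so passing the filter already required a difference. Retnlg, a resistin-like gene of neutrophils, was at 25.8 to 189 in hypHSCs and at 0 in all qHSC libraries, so that its hypHSC mean was at least 41.4-fold higher than the floor per library (limma adjusted p = 1.21e-05). Chil4, the close copy of Chil3, was at 27.2 to 37.3 in hypHSCs and 0 to 4.72 in qHSCs, a log2 fold change of 4.13 ± 0.67 (SE; limma adjusted p = 0.000434). Because the copies share stretches, part of the Chil4 reads could come from Chil3, the more abundant of the pair. Among qHSCs both held reads in qHSC 2 and qHSC 3 only. The part of Chil3 reads in the Chil4 value was not tested. Chil1, below the filter, was at 0 to 173 in hypHSCs and at 0 in all qHSC libraries. The sum of the neutrophil markers moved with these genes: the summed level of 10 markers was 1842 to 7953 in hypHSCs and 20.98 to 418 in qHSCs. Of the 10, 6 had a hypHSC mean of at least 10, and 3 of the 4 tested were higher, of which 1 (S100a9) reached 10 in hypHSC libraries only. None was at 0 in all hypHSC libraries. Among hypHSCs, however, Ly6g held reads in hypHSC 5 only, Elane in hypHSC 3 only, and Mpo and Camp in hypHSC 1 only. Ngp held reads in hypHSC 1 and 2, and Cxcr2 in hypHSC 1 to 4. Ly6g, Elane, Mpo and Cxcr2 also held reads in qHSC libraries. The part of neutrophil transcripts in the rise of Chil3, Chil4 and Retnlg was not tested.

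Arg1, the gene most used to mark alternatively activated macrophages, was detected in all 10 libraries and was not called. It was counted at 391, 431, 206, 483 and 1275 in hypHSC 1 to 5 and at 785, 517, 188, 465 and 267 in qHSC 1 to 5. hypHSC 1 to 4 lay inside the range of the qHSC libraries, and hypHSC 5 was above it. The log2 fold change was 0.23 ± 0.50 (SE; limma adjusted p = 0.722; exact permutation p = 0.690). Its 95% confidence interval, -0.86 to 1.32, held changes in both directions. The sign depended on the setting: the log2 fold change was -0.13 without hypHSC 5, -0.03 without qHSC 3, -0.12 with libraries scaled to the same total and -0.70 with scaling on Hprt, Pgk1 and Actb.

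Hepatocyte transcripts were present in both groups beside Arg1. The summed level of 11 hepatocyte markers was 71236 to 133817 in hypHSCs and 61530 to 135353 in qHSCs, 1 of 11 was a DEG (Apob, lower), and none was at 0 in all hypHSC libraries. Per 1000 counts of these markers, Arg1 was at 2.90 to 9.53 in hypHSCs and at 2.30 to 7.19 in qHSCs. hypHSC 5, with the highest Arg1, also held the highest hepatocyte marker sum of the hypHSCs. The part of hepatocyte RNA in the level of Arg1 was not tested. Arg1 lies at chr10:24791106-24803382 (GRCm39, minus strand, 8 exons), and 23.8% of its exon bases are covered by Gm36172 on the other strand, whose reads cannot be told apart from its own there.

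Nos2, which competes with Arg1 for arginine, was at or near 0 in both groups. It was listed at 12.1 in hypHSC 1, 4.99 in hypHSC 3 and 0 in hypHSC 2, 4 and 5. In qHSCs it was at 55.1 in qHSC 3, 2.72 in qHSC 1 and 0 in qHSC 2, 4 and 5. In each group 3 of 5 libraries held no read, and qHSC 3 alone held the highest value. The difference of the mean log2 values was -0.28 (exact two-sided permutation p = 1.0), it was 0.79 without qHSC 3, and a difference was not detectable at this depth. Nos2 lies at chr11:78811613-78851052 (GRCm39, plus strand, 27 exons).

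Genes around the arginine branch point went both ways, with a median log2 fold change of 0.21. Against a background of 17.8% higher and 21.7% lower, 4 of the 15, all tested, were higher, 4 lower and 7 not called. Among the higher ones were genes that lead toward polyamines or support nitric oxide synthesis. Gch1, which makes the tetrahydrobiopterin cofactor of nitric oxide synthases, had a log2 fold change of 3.55 ± 0.55 (SE; limma adjusted p = 0.000300). Sms, spermine synthase, had 2.703 ± 0.36, Odc1, which makes putrescine from ornithine, had 1.69 ± 0.37, and Arg2, the mitochondrial arginase, had 1.55 ± 0.47 (limma adjusted p = 0.0182).

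Arg2 was at 151 to 362 in hypHSCs and 39.4 to 237 in qHSCs, so its groups overlapped, and its call was lost with libraries scaled to the same total (1.20, limma adjusted p = 0.0550), on Hprt, Pgk1 and Actb (0.62) or at 12 diet weeks (1.53, adjusted p = 0.0625), as was that of Odc1 on Hprt, Pgk1 and Actb (0.76). Among the lower ones, Nos1, the neuronal nitric oxide synthase, fell by 4.03 ± 0.86 on the log2 scale, from 44.2 to 107 in qHSCs to 0 to 12.6 in hypHSCs. The log2 fold change was -3.29 ± 0.94 for Slc7a1, an arginine importer, -3.04 ± 1.03 for Ddah2, which degrades an inhibitor of nitric oxide synthases, and -2.45 ± 0.18 for Oat, which uses ornithine, and by edgeR Slc7a1 did not pass (-2.39). The other named genes of the list did not pass: the log2 fold change was -0.88 for Ass1 and 0.21 for Asl, which rebuild arginine from citrulline, 1.34 for Nos3, the endothelial synthase, and 1.23 for Slc7a2, the arginine importer of activated macrophages. Ass1 passed without hypHSC 2 (-1.04) or qHSC 3 (-1.11), at 12 diet weeks (-1.24), with the same total (-1.23) and on Hprt, Pgk1 and Actb (-1.81). Slc7a2 passed without hypHSC 5 (1.74) and by DESeq2 on the recovered reads (1.71), and Asl turned to -0.15 and -0.73 with the 2 scalings.

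Socs3 was the gene that fell. Its normalized counts were 296, 84.9, 99.8, 81.8 and 93.8 in hypHSC 1 to 5 and 1131, 1080.4, 427, 830.0 and 895 in qHSC 1 to 5. Every hypHSC library was below every qHSC library, with hypHSC 1 nearest to them. This was a log2 fold change of -2.85 ± 0.40 (SE; 95% confidence interval -3.73 to -1.96; limma adjusted p = 0.000165; exact permutation p = 0.00794). Without hypHSC 1 it was -3.19. Per 1000 counts of the 10 summed quiescent HSC markers the order of the groups was the opposite, 2.23 to 4.98 in hypHSCs and 0.365 to 0.680 in qHSCs. Those markers fell together with Socs3, and their part in its fall was not tested. Socs3 lies at chr11:117856915-117860192 (GRCm39, minus strand, 2 exons), with 11.8% of its exon bases covered by genes on the other strand.

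Socs1, which restrains interferon signaling, was near the floor and was not called. It was counted at 26.95, 28.99, 4.16, 0 and 0 in hypHSC 1 to 5 and at 11.8, 11.1, 36.2, 10.3 and 6.74 in qHSC 1 to 5. The hypHSC libraries of 13 diet weeks were inside the qHSC range and those of 12 weeks were below it. The log2 fold change was -1.37 ± 1.08 (SE; 95% confidence interval -3.74 to 0.9996; limma adjusted p = 0.318; exact permutation p = 0.294). Its size depended on the setting. The log2 fold change was -0.35 by edgeR, -0.36 by DESeq2, -0.60 with a pseudocount of 5 and -2.19 with scaling on Hprt, Pgk1 and Actb. With the hypHSCs of 12 diet weeks alone it was -3.00 ± 0.85 (limma adjusted p = 0.0181), a value that rests on 3 libraries with 4.16 normalized counts or less. The 13-week libraries were also those with more mitochondrial reads and more reads without a symbol, whose part in this contrast was not tested. Socs1 lies at chr16:10600104-10603402 (GRCm39, minus strand, 2 exons), with 12.4% of its exon bases covered by genes on the other strand.

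**Figure D3:**
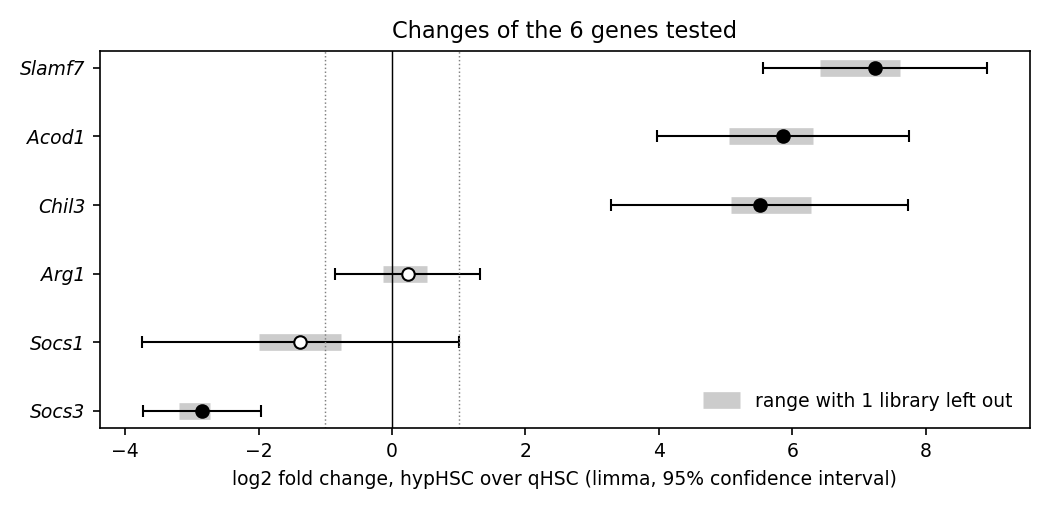
Log2 fold change of the 6 genes tested, hypHSC over qHSC, with 95% confidence intervals (limma, n = 5 against 5); filled points are DEGs, the grey bar spans the fits that left out 1 library and dotted lines mark a log2 fold change of 1 in either direction. Slamf7, Acod1 and Chil3 lie above 3 with their whole intervals, Socs3 lies below -1, and the intervals of Arg1 and Socs1 include 0.

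None of the 6 other SOCS family genes passed both criteria, against 39.5% of all genes tested, and their median log2 fold change was -0.28. limma with Benjamini-Hochberg adjustment gave Socs2, which restrains growth hormone signaling, a log2 fold change of -0.93 (adjusted p = 0.0138), just short of the threshold of 1, and it passed without hypHSC 5 (-1.09) or qHSC 4 (-1.08), at 12 diet weeks (-1.01), with the same total (-1.29) and on Hprt, Pgk1 and Actb (-1.87). Cish had -1.43 (adjusted p = 0.173), and passed without hypHSC 1 (-2.01) and on Hprt, Pgk1 and Actb (-2.36). The other four ranged from -0.58 to 0.70.

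Of 23 receptors and signal transducers upstream of these genes, all tested, 6 were higher, 8 lower and 9 not called, with a median log2 fold change of -0.08. The background over all genes tested was 17.8% higher and 21.7% lower. Il6st, the gp130 subunit to which SOCS3 binds, fell by 3.25 ± 0.25 on the log2 scale (SE; limma adjusted p = 2.27e-06), from 2855 to 5567 in qHSCs to 262 to 527 in hypHSCs. Lifr, which pairs with gp130, fell by 2.94 ± 0.44, and Stat3, the transcription factor downstream of it, fell by 1.41 ± 0.40 (limma adjusted p = 0.0124), which without hypHSC 5 was -0.9997 (adjusted p = 0.00139), just under the threshold of 1. Named after their values were seen, Osmr, another partner of gp130, had a log2 fold change of -2.01 ± 0.67 and Jak1, a kinase bound to it, -1.13 ± 0.14, both lower, while Il6ra, the subunit that binds IL-6 itself, rose by 3.89 ± 0.50, from 9.45 to 65.9 in qHSCs to 206 to 467 in hypHSCs.

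Among the interferon and IL-4 genes, Ifngr1, a chain of the interferon-gamma receptor, had a log2 fold change of 0.08 (limma adjusted p = 0.769). Its partner chain Ifngr2, named after its value was seen, rose by 1.65 ± 0.20 (SE; limma adjusted p = 5.58e-05). Il13ra1, a receptor chain for IL-13 that was also named afterwards, fell by 2.06 ± 0.19 (limma adjusted p = 7.02e-06). Il4ra, the receptor chain for IL-4 and IL-13, had -2.14 ± 1.05 (limma adjusted p = 0.113), with 7.56 to 622 normalized counts in hypHSCs and 247 to 1125 in qHSCs, and passed on Hprt, Pgk1 and Actb (-3.08). Stat6 had -1.38 ± 0.56 (limma adjusted p = 0.0612) and passed without hypHSC 2 (-1.70) or hypHSC 3 (-1.67), at 12 diet weeks (-1.96), with the same total (-1.74) and on Hprt, Pgk1 and Actb (-2.32). In the unaltered fit neither of the last 2 was called. The largest rises of the list were those of Cd14, the co-receptor for bacterial lipopolysaccharide, 4.77 ± 0.57, and Il2rg, the shared gamma chain, 4.01 ± 0.51, and Il10ra, the IL-10 receptor, rose by 2.68 ± 0.61.

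Other genes of the activation programs were counted to place the 8. Of 22 genes of classical activation, 20 were tested, 8 were higher, 4 lower and 8 not called, with a median log2 fold change of 1.43. For this and the alternative program, the background over all genes tested was 17.8% higher and 21.7% lower. Tnf, at 464 to 3445 in hypHSCs and 17.0 to 120 in qHSCs, rose by 4.79 ± 0.63 on the log2 scale (SE; limma adjusted p = 9.51e-05). Il12b, a subunit of IL-12, rose by 3.86 ± 1.24 (limma adjusted p = 0.0234), a call lost without hypHSC 1 (3.47), hypHSC 2 (3.499) or qHSC 1 (3.42) and at 12 diet weeks (2.86). Among the 4 genes that fell, the log2 fold change was -3.94 ± 1.17 for Gbp5, -2.24 ± 0.49 for Cxcl10, -1.94 ± 0.38 for Irf1 and -1.59 ± 0.34 for Gbp2. qHSC 3 was far above the other qHSC libraries for Gbp5, Cxcl10 and Gbp2. Leaving it out kept the calls of Gbp5 and Cxcl10. Of 18 genes of alternative activation, 14 were tested, 5 were higher, none was lower and 9 were not called, with a median log2 fold change of 1.81. Cdh1, an adhesion molecule of IL-4-treated macrophages, had 5.01 ± 1.21 and Ccl17, a chemokine, 4.19 ± 0.87. The groups overlapped for both (exact two-sided permutation p = 0.0159 for Cdh1 and 0.0238 for Ccl17). The other higher genes, named after their values were seen, were Clec10a (4.03 ± 1.01), Il10 (3.62 ± 0.81) and Mrc1 (3.30 ± 0.69). For these the groups did not overlap (exact permutation p = 0.00794 each). Genes of both programs were thus among those higher in hypHSCs, as were macrophage markers, and the part of the latter was not tested.

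**Figure D4:**
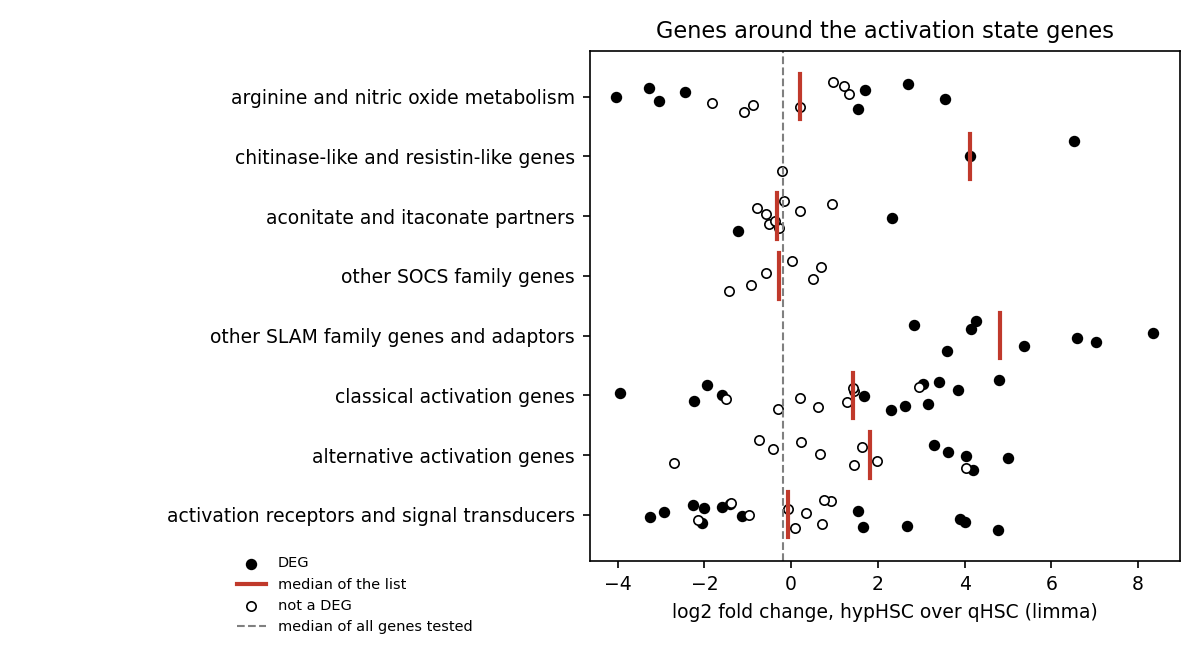
Log2 fold change (hypHSC over qHSC, limma) of each tested gene in the 8 lists around the activation state genes, with DEGs filled, the median of each list in red and the median of all genes tested, -0.20, as a dashed line. The SLAM family list lies wholly above 2, the SOCS list is centered near 0 and the remaining lists spread to both sides or hold few tested genes.

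Levels between genes were compared per length, as FPKM from the recovered reads and the exon length. In hypHSCs the order of the mean FPKM was Slamf7 (27.9 ± 4.83, SD, n = 5), Acod1 (5.40 ± 2.62), Arg1 (3.96 ± 2.53), Chil3 (2.23 ± 0.823), Socs3 (0.890 ± 0.642), Retnla (0.432 ± 0.600), Socs1 (0.0876 ± 0.105) and Nos2 (0.0195 ± 0.0295). Only Slamf7 was separated from its neighbor in this order, since all other neighbors overlapped over the libraries. In qHSCs Socs3 came first (7.44 ± 2.32), before Arg1 (4.25 ± 2.28), Slamf7 (0.375 ± 0.282), Acod1 (0.182 ± 0.171), Chil3 (0.153 ± 0.229), Socs1 (0.141 ± 0.118), Nos2 (0.0846 ± 0.179) and Retnla, listed at 0. There the only gap without overlap lay between Arg1 and Slamf7. Among 23225 genes with an exon length, Slamf7 ranked 1119 by mean FPKM in hypHSCs and 11320 in qHSCs, whereas Arg1 ranked 4104 and 4585.

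The genes whose pattern over the 10 libraries was most like that of each member were found by the mean absolute difference of centered log2 values among 10792 tested genes whose mean reached 100 normalized counts. Nearest to Slamf7 were Rab7b (0.25), a GTPase of endosomes, Plaur (0.41), the urokinase receptor, and Cd84 (0.50). Acod1 was nearest to Myof, Rhoh and Mcoln2 (0.59 to 0.60), and Chil3 to Saa3, Gpr176 and Trim29 (0.85 to 0.93), a looser match. The neighbors of Socs3 were Septin10 (0.21), Sdc2 and Sparcl1. Those of Arg1 were Mt1 (0.32), Mup5 (0.33) and Gsta3 (0.35), of which Mup5 encodes a major urinary protein. Those of Socs1 were Eln, Irf7 and Atp2b4 (0.63 to 0.69). These distances are descriptions, and the libraries and their 2 groups are shared by all genes compared.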

How the data were processed

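Poly(A) RNA of sorted cells was reverse-transcribed, amplified and sequenced at both ends (59 bases) without keeping strand. The unit of the deposited table is a signal, made by the authors with STAR on mm39 (GRCm39), featureCounts (Subread 1.5.0) and DESeq2: counts per gene divided by a size factor per library, here called normalized counts. Multiplying each library by 1 factor returned whole reads for 100% of values (tolerance 0.01 normalized counts). These recovered reads served for depth, FPKM (GENCODE exon lengths), edgeR 4.0.16 and DESeq2 1.42.0.

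Of 62322 entries, the 25233 with a symbol were used, and no sample column was left out. Genes reaching 10 normalized counts in 5 or more libraries were tested on log2(normalized count + 1) with limma 3.58.1 (intensity trend, R 4.3.3) and Benjamini-Hochberg adjustment. For low genes the log2 fold change depends on this scale. Chil3 had 5.51 by limma against 4.28 by edgeR and 4.29 by DESeq2. Acod1 had 5.86 against 5.28 and 5.29. Exact two-sided permutation tests were run in Python 3.11.15 with scipy 1.17.1. The steps were tested on simulated data. The genes, lists and tests were chosen with earlier results of these data known. Named are the 8 genes, the 2 largest rises and falls among DEGs of each list, genes that share a substrate, ligand or partner with a member, and the 3 nearest genes by pattern, except some genes that are not reported here. Trbc2 and Ighm had no entry, and Trf and Rnase2a were matched by synonym. Depth, 30534719 to 47317028 reads per library, set a floor of 3 reads.

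Marker lists of other cell types not described in the results gave these sums: 6 Kupffer cell markers, 18347 to 34538 in hypHSCs and 1270 to 44861 in qHSCs (3 higher), 9 T and NK cell markers, 64.0 to 749 and 5.11 to 197 (no DEG, Ncr1 at 0 in all hypHSCs), 5 B and plasma cell markers, 242 to 7272 and 55.4 to 12055 (1 higher), 7 dendritic cell markers, 583 to 3790.1 and 420.1 to 1035 (2 higher, 1 lower), and 5 sinusoidal endothelial markers, 397 to 772 and 905 to 2089.6 (1 higher, 1 lower). Alternatives changed the pseudocount (0.5 or 5), the filter, the scaling, the tool (edgeR or DESeq2), the replicate number as a block, the diet weeks and, in turn, each library left out. Including entries without a symbol, and DESeq2 on every entry, were added after the data had been seen.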

Additional observations from a re-analysis of the deposited data

Results flagged for a closer look

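In 4 of 15 groups of 5 libraries, 1 library lay far from the others by Dixon's criterion (the gap to the nearest library over the range of the group, critical value 0.71), which chance passes in about 1 of 20 groups. Arg1 was highest in hypHSC 5, at 1275 normalized counts, with a gap of 0.741 of the range. Socs3 was highest in hypHSC 1, at 296, with a gap of 0.916. In qHSC 3, Nos2 was at 55.1 (gap 0.951) and Socs1 at 36.2 (gap 0.829), so both genes had their highest qHSC value in the same library. By FPKM, Gbp2 (160 against 39.5 to 43.6) and Cxcl10 (132 against 17.5 to 44.8) also stood highest in qHSC 3 among qHSCs.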

How the results depend on the processing

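Slamf7, Acod1, Chil3 and Socs3 kept their direction and their call under every alternative that could be run. Leaving out 1 library gave log2 fold changes of 6.42 to 7.61 for Slamf7, 5.06 to 6.31 for Acod1, 5.08 to 6.28 for Chil3 and -3.19 to -2.73 for Socs3, and -1.99 to -0.77 for Socs1. Arg1 ranged from -0.13 to 0.52 with 1 library left out, turned to -0.12 with libraries scaled to the same total and to -0.70 with scaling on Hprt, Pgk1 and Actb. These scalings moved the median of all genes from -0.20 to -0.54 and -1.12, so Arg1 stayed above that median. The difference of Nos2 ranged from -0.90 to 0.79, turning to 0.03 without hypHSC 2, 4 or 5 and to 0.79 without qHSC 3, and that of Retnla from 1.58 to 2.92. For Nos2 and Retnla, below the filter, edgeR, DESeq2, the block and the higher filter were not run. Socs1 reached -3.00 with the hypHSCs of 12 diet weeks only, and was -0.35 by edgeR and -0.36 by DESeq2. Asl turned to -0.15 and -0.73 under the 2 scalings, and Ifngr1 to -0.27 and -0.86 and, at 12 diet weeks, -0.036. The cause of these changes was not tested.

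The number of DEGs was 5779, 5241 to 5914 with 1 library left out, 5336 by edgeR and 5861 by DESeq2. It was 9291 with entries without a symbol and 10873 by DESeq2 on every entry, where more features were tested. The replicate numbers came with correlations of deviations of 0.07, 0.07, 0.01, 0.06 and 0.13, so the libraries shared only a number, and with it as a block there were 5786 DEGs and no gene of the 8 changed its call, while Stat6 (-1.38, adjusted p = 0.0268) and Il4ra (-2.14, adjusted p = 0.0418) passed and Aco1 (adjusted p = 0.0514) and Il12b (adjusted p = 0.0561) did not, by limma. Among the lists, the chitinase-like and resistin-like count of 2 fell to 0 under a mean of at least 100 normalized counts. The aconitate count of 2 became 8 with scaling on Hprt, Pgk1 and Actb, 1 with the replicate block and 1 to 3 with 1 library left out. The SOCS count of 0 became 1 with the same total, 3 with Hprt, Pgk1 and Actb, 1 at 12 diet weeks and 0 to 1 with 1 library left out. The alternative activation count of 5 became 3 under the higher filter and 8 with Hprt, Pgk1 and Actb.

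Depth limits Nos2, Retnla and Socs1, whose libraries lie near the floor of 3 reads, and the qHSC side of Chil3 and Acod1. Reads of overlapping genes on opposite strands cannot be told apart. The groups differ in diet, age, digestion, antibiotics and gate at once.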
